A study of Mus musculus with 22 samples.

Results

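Activity-regulated genes other than those of the AP-1 family were examined for occupancy by the transcription factor E2F3a, which belongs to the E2F family of cell cycle regulators, in the nucleus accumbens (NAc) of the mouse, a striatal region involved in reward. The set held 38 named genes out of 20665 protein-coding autosomal genes, and it divided into 18 genes for DNA-binding transcription factors and 20 effector genes, which encode other products. Occupancy had been measured by CUT&RUN, a method that frees protein-bound DNA with a nuclease tethered to an antibody. The groups were cocaine, given as daily intraperitoneal injections of 20 mg/kg for 7 days in the home cage, and saline, given on the same schedule. All mice were wild-type C57BL/6J, females and males, and no source used here gives their ages. By the labels, E2F3a libraries numbered 7 for cocaine, from 2 females and 5 males, and 4 for saline, from 2 females and 2 males. The labels also list 4 cocaine and 5 saline libraries made with a control immunoglobulin G, for which no values were analysed here. Nuclei came from punches of whole tissue, so signal from neurons and other cells is mixed, and fewer occupied cells and less occupancy per cell cannot be told apart.

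Synaptic activity raises calcium in neurons and activates kinases, which phosphorylate transcription factors that are already present, such as CREB and serum response factor. These switch on immediate early genes within minutes, many of which encode further transcription factors (Egr, Nr4a and Npas4), while others encode proteins that act at the synapse, on kinases or in neurotrophin signalling. In the striatum psychostimulants are known to induce many of these genes.

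The deposited files used here were a pooled peak list for each treatment, of 3467 cocaine and 725 saline peaks from both sexes, and a table of 956 sites that the authors found to differ, 947 of them at an adjusted p below 0.05. For each site the table holds the normalized counts of 6 cocaine libraries and 4 saline libraries, none of them named. They are numbered here by their place in the table, and their sex is not known. Reads recovered at the listed sites ran from 46536 to 102633 per cocaine library and from 41437 to 153637 per saline library, and the reads of the whole libraries are not given. With 1 pooled list per treatment, peak counts have no replicate check. Coordinates are mm10.

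Cocaine peaks lay at 11 of the 38 activity-regulated genes and saline peaks at 2. The cocaine peaks were at the transcription factor genes Egr1, Npas4, Crem and Klf10 and at the effector genes Arc, Dusp1, Per1, Per2, Sgk1, Ntrk2 and Pim1. The saline peaks were at Dusp1 and Btg2, both effector genes. A gene was counted where a peak overlapped it or lay within 1 kb of it. The cocaine share was 28.9% of the 38 genes, against 10.2% of all protein-coding autosomal genes. The saline share was 5.26%, against 1.9%. Genes differ in length and longer genes can hold more peaks, so each gene was also set beside the protein-coding genes in its own of 20 length bands. Genes of like length had a cocaine peak in 9.96% of cases, or 3.78 genes for a list of 38. For saline peaks genes of like length gave 1.75%, or 0.665 genes. These shares are descriptions and were not tested.

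By role, cocaine peaks were found at 4 of 18 transcription factor genes (22.2%), where genes of like length gave 10.3%, and at 7 of 20 effector genes (35.0%), where genes of like length gave 9.61%. Saline peaks were found at 0 of 18 transcription factor genes, with 1.95% in genes of like length, and at 2 of 20 effector genes where genes of like length gave 1.57%. The median gene length was 16422 bp for the transcription factors, 9822 bp for the effectors and 17491 bp for all protein-coding genes. Among the activity-regulated genes, cocaine peaks were spread over lengths, with 4 of the 13 shortest (1522 to 5339 bp), 3 of the 12 in the middle (7720 to 19087 bp) and 4 of the 13 longest (20894 to 327499 bp). When the cocaine list was trimmed to the 725 peaks with the smallest p, 4 of the 38 genes kept a peak (Dusp1, Egr1, Npas4 and Per1), against 2.22% of all protein-coding genes. The difference between the roles was not tested, since genes are not replicates of a treatment.

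**Figure D1:**
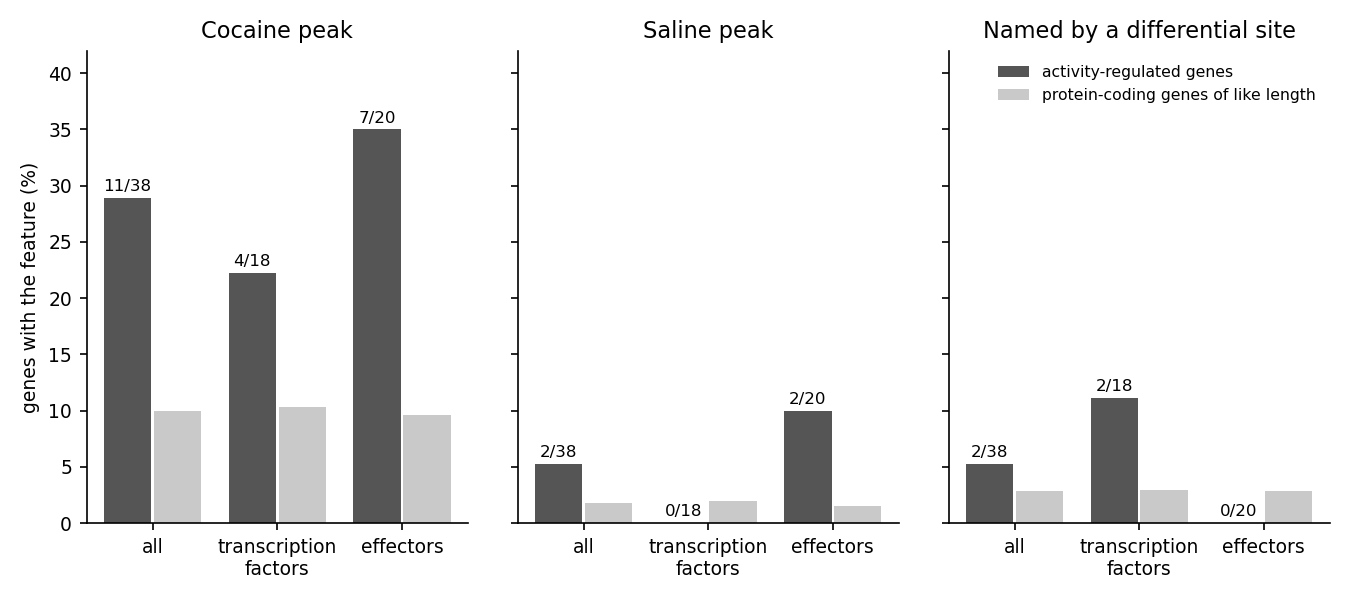
Share of genes (%) with a cocaine peak, with a saline peak, or named by a differential site, for the 38 activity-regulated genes and for the 18 transcription factors and 20 effectors among them (dark bars), beside protein-coding genes of like length (light bars). Numbers above the dark bars are counts, and the tallest bar is the 7 of 20 effector genes with a cocaine peak (35.0%).

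Among the effectors, Dusp1 was the gene with a peak in both lists. It encodes a phosphatase that switches off mitogen-activated protein kinases. The cocaine peak at chr17:26508256-26509179 was 10.5-fold enriched over the background of the authors' peak caller and ranked 101 of 3467, and the saline peak at chr17:26508256-26509169 was 6.09-fold enriched and ranked 55 of 725. Folds of different lists are not compared here. The peaks began at the same base, and their summits lay 353 bp (cocaine) and 338 bp (saline) upstream of the transcription start site. A further cocaine peak (5.70-fold) and saline peak (4.01-fold) lay 1108 and 1541 bp beyond the other end of the gene, just outside the 1 kb limit.

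Pim1, which encodes a serine/threonine kinase, had a cocaine peak of 8.81-fold at chr17:29489815-29490782 that ended 3 bp before the gene. Its summit lay 521 bp upstream of the start site. Btg2, which encodes an antiproliferative co-regulator, had a saline peak of 3.41-fold at chr1:134079377-134079743, with its summit 288 bp upstream of the start site, and its nearest cocaine peak was 187 kb away. Sgk1, which encodes a kinase induced by glucocorticoids and serum, has several start sites. Its cocaine peak of 5.17-fold at chr10:21994210-21994537 had its summit 244 bp upstream of one of the internal start sites and 112238 bp from the 5′ end of the gene.

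The 250 bases before these 4 start sites are shown because, of the RefSeq promoters at hand for the set (GRCm38.p6, the assembly of mm10), a peak reached these. No promoter was at hand for Egr1, Per2, Arc, Crem and Klf10, which have a cocaine peak, so whether a peak reached theirs was not examined. Capitals mark the letters TGACG, the core of the cAMP response element (CRE) to which CREB binds, and GGGCGG, the GC box, each on either strand. The full CRE, TGACGTCA, holds TGACG on each strand, and these overlap.
Dusp1, chr17:26508473-26508722, minus strand: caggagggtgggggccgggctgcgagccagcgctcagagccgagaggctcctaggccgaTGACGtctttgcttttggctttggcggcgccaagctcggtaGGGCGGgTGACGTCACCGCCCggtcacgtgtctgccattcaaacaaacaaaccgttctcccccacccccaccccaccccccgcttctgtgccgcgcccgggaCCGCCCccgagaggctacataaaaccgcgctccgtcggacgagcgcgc
Btg2, chr1:134079156-134079405, minus strand: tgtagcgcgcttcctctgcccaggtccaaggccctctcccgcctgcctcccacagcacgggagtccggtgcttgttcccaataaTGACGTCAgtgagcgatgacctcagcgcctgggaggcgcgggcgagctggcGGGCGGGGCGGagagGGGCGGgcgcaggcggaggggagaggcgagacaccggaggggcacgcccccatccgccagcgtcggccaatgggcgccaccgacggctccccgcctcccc
Pim1, chr17:29490535-29490784, plus strand: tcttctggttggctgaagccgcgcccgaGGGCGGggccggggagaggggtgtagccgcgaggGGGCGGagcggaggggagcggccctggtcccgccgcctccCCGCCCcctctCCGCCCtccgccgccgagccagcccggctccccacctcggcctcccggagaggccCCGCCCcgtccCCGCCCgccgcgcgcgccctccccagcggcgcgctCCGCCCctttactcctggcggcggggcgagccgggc
Sgk1, chr10:21994416-21994665, plus strand: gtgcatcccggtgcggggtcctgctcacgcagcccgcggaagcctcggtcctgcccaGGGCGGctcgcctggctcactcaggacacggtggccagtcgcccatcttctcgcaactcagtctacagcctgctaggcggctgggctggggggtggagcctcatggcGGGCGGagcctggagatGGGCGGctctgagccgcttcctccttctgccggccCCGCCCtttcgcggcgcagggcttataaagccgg
All 250 bases of the Dusp1 sequence lay within the peaks of both lists. Of the Pim1 sequence 248 bases lay within the cocaine peak, of the Sgk1 sequence the first 122, and of the Btg2 sequence the first 29 within the saline peak. Dusp1 and Btg2 each held 1 full CRE, which began 143 and 166 bases before the start site. Dusp1 held a further TGACG that began 191 bases before it. The GC box occurred 7 times in the Pim1 sequence, 4 times in that of Sgk1 and 3 times each in those of Dusp1 and Btg2. No marked letters of the Btg2 sequence lay within its peak. In the Sgk1 sequence only the GC box that began 193 bases before the start site did. The Pim1 sequence was 82.4% G or C with 36 CpG dinucleotides, and the others were between 68.4% and 73.2% G or C.

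RefSeq promoters of 300 bases, from 250 before to 50 after a start site, were at hand for 27 of the 38 genes, and for genes with several the first listed was used. The full CRE was found in 2 of the 27 (7.41%), namely Dusp1 and Btg2, and in 2.42% of the promoters of 16457 protein-coding genes. TGACG, full CREs included, was found in 13 of the 27 (48.1%), against 24.2%, and the GC box in 17 (63.0%), against 47.3%. The E2F sequences TTTCCCGC, TTTGGCGC, TTTCGCGC and TTTGCCGC were found in 0 of the 27, against 2.92% of all promoters, and GCGTGGGCG, to which Egr proteins bind, in 0 against 0.851%. The CArG box of serum response factor was found in 0, against 1.43%. These 3 shares of all promoters are small, so absence among 27 promoters is not read as a trait of the set. The median G and C content was 64.7% in the 27 promoters and 56.7% in all, and the median number of CpG dinucleotides was 26 and 14. In the 7 promoters of activity-regulated genes with a peak in either list the median G and C content was 67.0%, and in the 20 without one it was 64.7%. These 7 were chosen by gene, and the peak did not reach the promoter in each. For Sgk1 the first listed promoter, with 49.7% G or C, was not the one printed above.

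Both Period genes of the set had a cocaine peak at an end of the gene. They encode repressors of the circadian clock that are also induced by neuronal activity. At Per1 the cocaine peak (chr11:69094552-69095340) was 7.57-fold and its summit lay 142 bp upstream of the 5′ end of the gene. At Per2 it was 4.43-fold (chr1:91459501-91459837), lay 150 bp beyond the end of the gene with the higher coordinate, and ranked 2201 of 3467. A second cocaine peak of 5.30-fold lay 7788 bp upstream of Per1, 1208 bp from Vamp2, which encodes a synaptic vesicle protein.

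Arc, which encodes a capsid-like protein of the postsynapse, had a cocaine peak of 5.28-fold at chr15:74673073-74673439, 503 bp beyond the end of the gene with the higher coordinate. Ntrk2, which encodes TrkB, the receptor for brain-derived neurotrophic factor (BDNF), had a cocaine peak of 4.34-fold at chr13:58807318-58807601. Its summit lay inside the gene, 961 bp downstream of the nearest start site, near 1 end of a gene of 327499 bp. Of the effector genes with a cocaine peak, Dusp1 also had a saline peak, and at Arc, Per1, Per2, Sgk1, Ntrk2 and Pim1 the nearest saline peak was between 292 kb (Pim1) and 3775 kb (Arc) away. The saline list is shorter (725 peaks against 3467), so absence from it does not show less signal in saline.

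Among the transcription factor genes, Npas4 had the peak with the highest fold. It encodes a neuron-specific factor that is induced by calcium influx. The cocaine peak at chr19:5001991-5002273 was 8.09-fold and ranked 320 of 3467. Its summit lay 1294 bp inside the 5′ end of the gene as RefSeq records it, and 12174 bp upstream of the listed start site. Egr1, which encodes a zinc finger factor induced within minutes of activity, had a cocaine peak of 7.65-fold at chr18:34860071-34861122, 85 bp from the end of the gene with the lower coordinate. At 1052 bp it was the widest peak of the set.

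Crem, which encodes activators and repressors of the CREB family, had 2 cocaine peaks. The peak at chr18:3336807-3337067 (5.25-fold) had its summit 925 bp inside the end of the gene with the higher coordinate, and the other at chr18:3280869-3281489 (5.20-fold) lay 14618 bp inside the opposite end. Klf10, which encodes a zinc finger repressor induced by transforming growth factor beta, had a cocaine peak of 4.17-fold at chr15:38299188-38299713, the lowest of the 12 cocaine folds, with its summit 1508 bp inside the end of the gene with the higher coordinate. The nearest saline peak of these 4 genes was between 685 kb (Crem) and 2491 kb (Npas4) away. Here too, absence from the shorter saline list does not show less signal in saline.

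The peaks of the set were spread over the authors' cocaine list, with more above its median than below. The median fold of the 12 cocaine peaks was 5.27, against 4.88 for all 3467, and 9 of the 12 were above that median. They ran from percentile 26.8 (Klf10) to percentile 97.1 (Dusp1) of the list. In the authors' deposited peak list the −log10 of the q-value ran from 3.30 at Per2 to 31.2 at Dusp1 and was 30.4 at Egr1. Over all protein-coding genes with a peak, the median fold of the cocaine peaks was 5.17. Of the 12 cocaine peaks, 7 (58.3%) had their summit within 1 kb of either end of the gene, against 52.4% of the 2300 pairs of a cocaine peak and a protein-coding gene. One cocaine peak of the 12, at Dusp1, overlapped a saline peak (8.33%), against 15.7% in the whole cocaine list. None of the 12 cocaine peaks had another protein-coding gene within 1 kb, and the share of all cocaine peaks for which this holds was not counted.

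**Figure D2:**
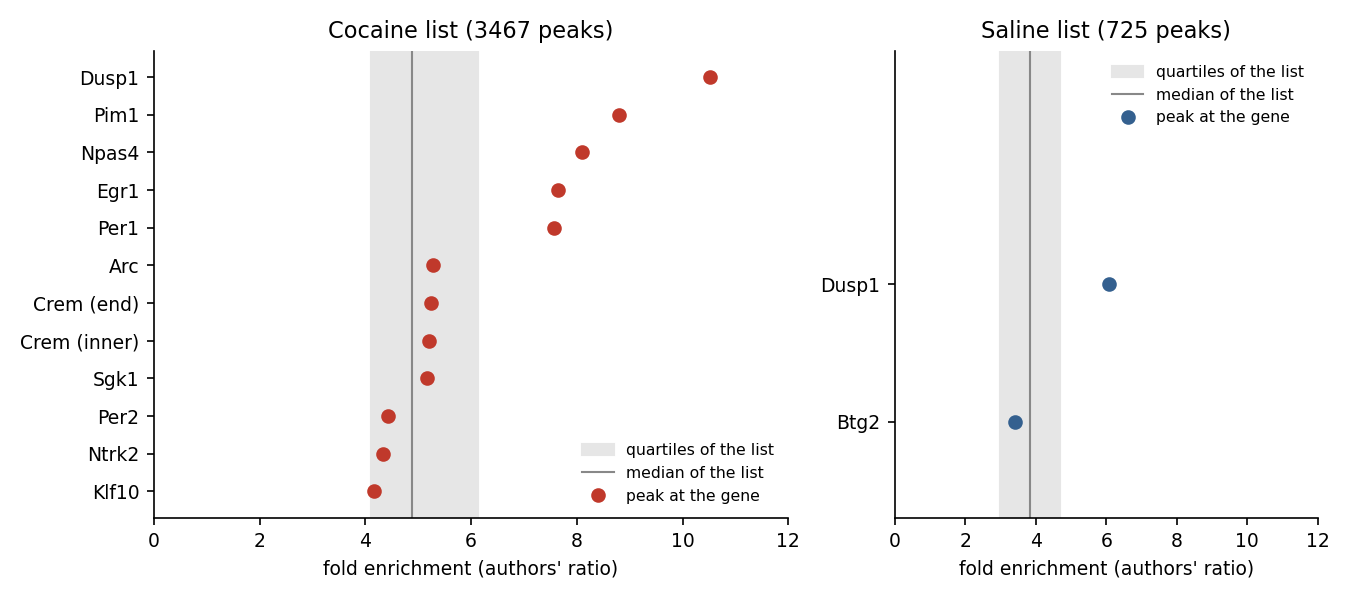
The authors' fold enrichment (x axis) of each peak at an activity-regulated gene, in the cocaine list on the left and the saline list on the right, with the median (line) and quartiles (shading) of all peaks of that list. In the cocaine list the points run from 4.17-fold at Klf10 to 10.5-fold at Dusp1, and in the saline list Dusp1 (6.09-fold) lies above the shading and Btg2 (3.41-fold) within it.

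The other 26 genes had no peak of either list within 1 kb. They included the other Egr genes (Egr2, Egr3 and Egr4), all 3 Nr4a nuclear receptor genes, the 3 Mef2 genes of the set, which encode calcium-regulated factors that limit synapse number, and Creb1, Atf3, Klf4, Nfil3 and Csrnp1. Among the effectors they were Bdnf, the postsynaptic scaffold gene Homer1, the phosphatase genes Dusp4 and Dusp6, Ier2, Ier5, the pentraxin gene Nptx2, the kinase gene Cdk5, the neuropeptide precursor gene Vgf, Gadd45b and Gadd45g, which take part in stress responses and DNA demethylation, and Tiparp, an ADP-ribosyltransferase gene. None of the 38 genes had its nearest peak of a list between 1 and 10 kb away. Of all 20665 protein-coding genes, 752 had their nearest cocaine peak at that distance. That share is small, so its absence among 38 genes is not read as a trait of the set. Of the 27 genes without a cocaine peak, the median distance to the nearest one was 302 kb (quartiles 103 and 523 kb), against 196 kb (71.2 and 458 kb) for the 18566 protein-coding genes without one.

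The peaks nearest to several of these genes overlapped a neighbouring gene, and those near Vgf, Cdk5 and Gadd45b were strong. To which gene a peak belongs was not tested. The cocaine peak nearest to Vgf was 12.3 kb away in Ap1s1, which encodes a subunit of a clathrin adaptor. It was 11.5-fold, at percentile 98.1 of the cocaine list, and a saline peak of 8.22-fold lay there as well. The peaks nearest to Cdk5 lay 23.4 kb (cocaine, 9.61-fold) and 23.5 kb (saline, 5.57-fold) away in Nos3, which encodes endothelial nitric oxide synthase. Those nearest to Gadd45b lay 65.8 kb (cocaine, 8.73-fold) and 66.1 kb (saline, 5.79-fold) away in Gng7, which encodes a G protein subunit abundant in the striatum. A cocaine peak of 4.70-fold and a saline peak of 4.93-fold lay 58.8 and 63.6 kb from Mef2c, which was the nearest protein-coding gene to both. The cocaine peaks nearest to Gadd45g (53.0 kb, in Sema4d), Egr4 (59.2 kb, in Pradc1) and Nptx2 (80.4 kb) had no saline peak within 100 kb of these genes. Egr2 was the gene farthest from any cocaine peak, at 2119 kb.

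**Figure D3:**
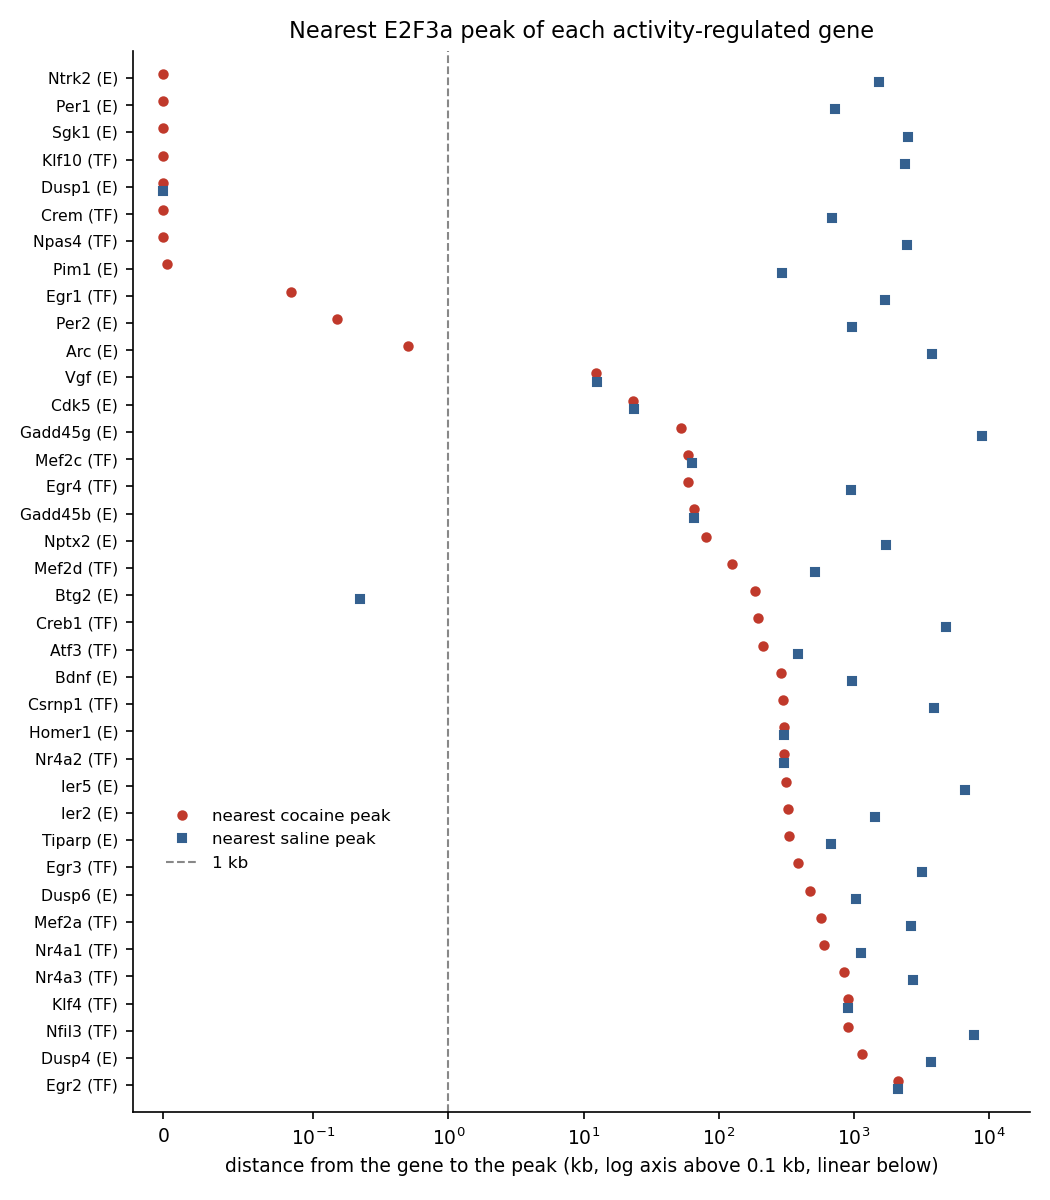
Distance in kb (log axis above 0.1 kb, linear below) from each of the 38 genes to the nearest cocaine peak (circles) and the nearest saline peak (squares), with TF for transcription factors and E for effectors. The cocaine circles of 11 genes lie left of the 1 kb line, and none lies between 1 and 10 kb.

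The differential sites named 2 of the 38 genes, both transcription factor genes. Creb1, which encodes CREB, the factor that conveys cAMP and calcium signals to these genes, had a site with more signal in cocaine. Nr4a1, which encodes an orphan nuclear receptor induced by activity, had a site with less. The 2 genes made 5.26% of the set, against 2.92% of all protein-coding autosomal genes named by a site at an adjusted p below 0.05 in either direction, and 2.88% in genes of like length. A higher site named 1 of 38 genes and 1.07% of all, and a lower site 1 of 38 and 1.9% of all. Among transcription factors it was 2 of 18 (11.1%, with 2.93% in genes of like length) and among effectors 0 of 20 (2.84% in genes of like length), which was not tested. Of all listed sites 99.1% pass that threshold, 49.5% as higher and 49.6% as lower.

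The Nr4a1 site (chr15:101239902-101240900) lay between genes, 13369 bp upstream of the start site in the authors' annotation. In cocaine libraries 1 to 6 the normalized counts there were 19.24, 10.40, 13.08, 10.37, 13.28 and 10.26, and in saline libraries 1 to 4 they were 29.33, 22.89, 24.56 and 28.19. Each of the 6 cocaine libraries lay below each of the 4 saline libraries. The means were 12.8 ± 3.46 (SD, n = 6) for cocaine, against 26.2 ± 3.02 (SD, n = 4) for saline, on 6 to 30 recovered reads per cocaine library and 15 to 64 per saline library. The authors' deposited table gave a log2 fold change of -1.04, with an adjusted p of 0.00233, and the enrichment over a background was 0.98 in cocaine and 2.22 in saline. An exact permutation test of the means, two-sided over 210 splits, gave p = 0.0095, the smallest the design allows, and 0.0323 after Benjamini-Hochberg adjustment over the 956 listed sites. With any 1 of the 4 saline libraries left out the adjusted p was above 0.05, at up to 0.0714. Fewer splits raise the smallest p there, so this loss does not show that the site rests on 1 library. With any 1 cocaine library left out the adjusted p stayed below 0.05. The authors chose the listed sites for a difference between these same libraries, and 47.5% of the listed lower sites had groups that did not overlap, so neither the separation nor the p is independent evidence. Of the 480 listed lower sites, 338 passed the exact permutation test after adjustment, so passing it is not particular to Nr4a1. No peak of either list lay near this site, the nearest cocaine peak being 592 kb away.

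The Creb1 site (chr1:64546202-64547200) lay in an intron, 13308 bp from the start site. In cocaine libraries 1 to 6 the normalized counts were 10.90, 16.64, 16.10, 14.26, 44.25 and 23.94, and in saline libraries 1 to 4 they were 7.60, 10.81, 9.21 and 15.03. The groups overlapped, with 4 of the 6 cocaine libraries above every saline library, and cocaine 5 was far above the rest. The means were 21.0 ± 12.2 (SD, n = 6) for cocaine, against 10.7 ± 3.19 (SD, n = 4) for saline, on 11 to 20 recovered reads per cocaine library and 8 to 24 per saline library. The authors' deposited table gave a log2 fold change of 0.98, with an adjusted p of 0.00154, and the enrichment was 1.31 in cocaine and 1.18 in saline. The exact permutation test gave p = 0.0381, and 0.0677 after adjustment over the listed sites, so at this site the authors' call was not matched by a test of the library values. Of the 476 listed higher sites, 85 passed this test after adjustment, so failing it is not particular to Creb1. The log2 ratio of the means was 0.62 without cocaine 5 and 0.44 without cocaine 5 and 6. One read was worth 2.21 normalized counts in cocaine 5 and 1.71 in cocaine 6, the largest values among the cocaine libraries, against 0.64 to 1.30 in cocaine 1 to 4 and 0.38 to 1.88 in saline 1 to 4. The part of this step in the result was not tested. With limma over all listed sites the adjusted p was 0.104 at Creb1 and 0.0437 at Nr4a1.

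**Figure D4:**
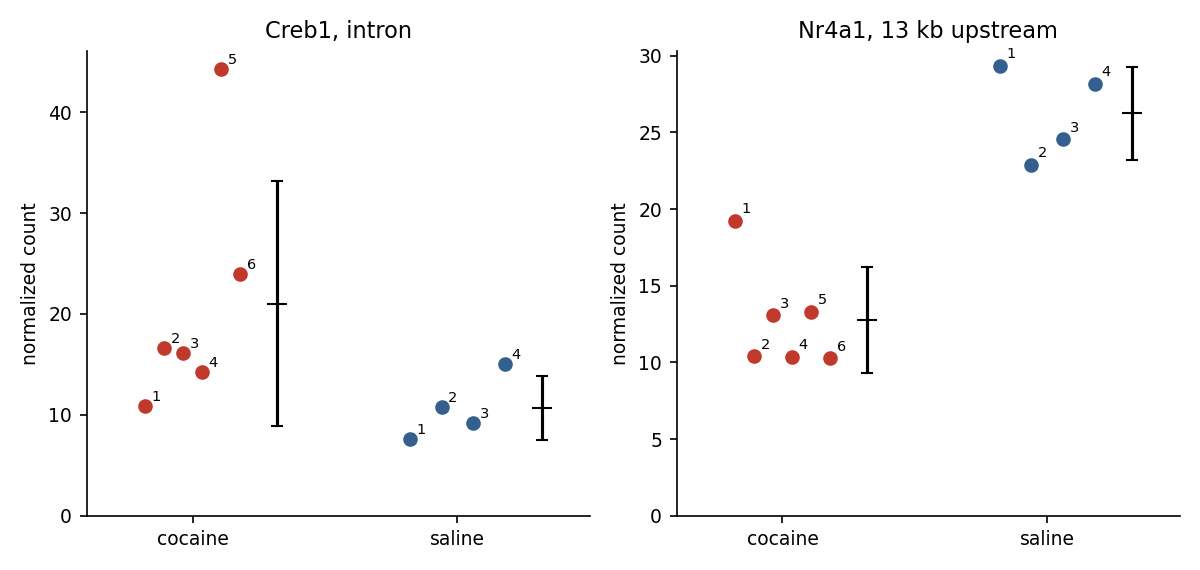
Normalized count (y axis) in each library at the Creb1 site on the left and the Nr4a1 site on the right, with cocaine libraries 1 to 6 in red and saline libraries 1 to 4 in blue, numbered in the order of the authors' table, and the mean ± SD of each group as a bar. At Nr4a1 each cocaine point is below each saline point, and at Creb1 cocaine 5 (44.25) stands above the others.

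None of the 14 peaks at activity-regulated genes, of either list, overlapped a listed site. The share of all peaks that overlap a site was not counted, so this is not read as a trait of the set. Sites that named another gene lay within 30 kb of Cdk5, Per1 and Mef2d. The site nearest to Cdk5 (chr5:24424602-24426100) was 1015 bp from the gene, just beyond the 1 kb limit, and the authors' table assigns it to the promoter of Slc4a2, which encodes an anion exchanger. Its mean was 13.9 ± 4.77 (SD, n = 6) for cocaine, against 35.6 ± 6.15 (SD, n = 4) for saline, and each cocaine library lay below each saline library. The exact permutation test gave p = 0.0095 and an adjusted p of 0.0323. The authors chose this site too on these same libraries, and 47.5% of the listed lower sites had groups that did not overlap. Neither the separation nor the p is therefore independent evidence. With any 1 saline library left out the adjusted p was between 0.0656 and 0.0714, where fewer splits raise the smallest p.

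At the site 7608 bp from Per1, assigned to the promoter of Vamp2 (chr11:69086302-69087500), cocaine libraries 1 to 6 had 51.30, 55.12, 21.13, 33.71, 0.00 and 32.49, and saline libraries 1 to 4 had 54.86, 52.78, 61.01 and 54.49. The mean was 32.3 ± 20.3 (SD, n = 6) for cocaine, against 55.8 ± 3.60 (SD, n = 4) for saline, and the exact permutation p was 0.0381 (adjusted p = 0.0677). This site overlapped the cocaine peak 7788 bp upstream of Per1 and no saline peak. In the authors' deposited table the enrichment was 6.60 in cocaine and 2.31 in saline, so there it runs opposite to the normalized counts. At the site 28.0 kb from Mef2d, assigned to the microRNA gene Mir3093, the mean was 21.5 ± 7.58 (SD, n = 6) for cocaine, against 10.7 ± 3.72 (SD, n = 4) for saline, with an exact permutation p of 0.0286 (adjusted p = 0.0547).

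A further 82 genes of the same pathways, among them kinases, calcineurin subunits, coactivators and other induced genes, were set beside the 38, and 80 of them are autosomal. Of these 80, 12 had a cocaine peak, where genes of like length gave 9.41 genes of 80, and 0 had a saline peak, where genes of like length gave 1.74. The highest cocaine folds were at Atf2 (7.24-fold), which encodes a CREB-related factor, Creb3 (6.60-fold), the histone demethylase gene Kdm6b (6.34-fold), Klf9 (5.71-fold) and Rgs2 (5.18-fold), which encodes a regulator of G protein signalling. The peak counted for Creb3 lay 96 bp outside it and overlapped its neighbour Tln1. Sites named 5 of the 80 (6.25%, with 3.62% in genes of like length). At the promoter of the histone deacetylase gene Hdac4 the mean was 11.5 ± 6.79 in cocaine and 26.6 ± 4.03 in saline, and in the 3′ untranslated region of Cdk5r1, which encodes the activator of Cdk5, it was 11.1 ± 7.00 in cocaine and 29.95 ± 7.34 in saline (SD, n = 6 and n = 4). At the site named for the kinase gene Camkk2, which lay 3780 bp outside the gene, it was 23.1 ± 7.27 in cocaine and 51.9 ± 13.3 in saline. At the promoter of the GTPase gene Rheb it was 91.0 ± 31.9 in cocaine and 120.3 ± 8.89 in saline, whereas the enrichment in the authors' deposited table was 3.28 in cocaine and 2.62 in saline. A cocaine peak overlapped this site, and the nearest saline peak was 378953 bp away. In an intron of Camk2b, a subunit gene of the calcium/calmodulin-dependent kinase II, it was 20.7 ± 8.71 in cocaine and 7.15 ± 1.36 in saline. The exact permutation test, adjusted over the 956 sites, gave an adjusted p of 0.0323 at Hdac4, Cdk5r1, Camkk2 and Camk2b and 0.162 at Rheb. With any 1 saline library left out it was between 0.0656 and 0.0714 at these first 4 sites, where fewer splits raise the smallest p. The authors chose these sites on the same libraries, and 338 of 480 listed lower sites and 85 of 476 higher sites passed this test. These p-values are therefore not independent evidence.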

How the data were processed

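E2F3a CUT&RUN had been run on NAc nuclei of mice given cocaine or saline. Per the file headers and names, the authors called peaks with MACS on both sexes pooled, 1 list per treatment, with a score, a fold enrichment (ratio) and the −log10 of p and q per peak. The authors' deposited table of sites (diffReps, negative binomial, per its file name) holds normalized counts per library joined in a cell (unnamed libraries), mean signal, enrichment ratio, log2 fold change, p-value and adjusted p. The build, mm10, comes from the submitters' processing notes, while no source used here gives the aligner, caller settings, versions or what the IgG libraries were used for. The labels name different treatments for 2 IgG libraries, which were left unassigned. The labels do not say that libraries came from separate animals, so p-values measure the spread between libraries, which may be technical.

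The members, lists and tests were chosen with earlier results of these data known. Peaks and sites were matched to RefSeq genes (GRCm38.p6) within 1 kb, or by the gene named in the table, and all genes with a peak or site are named, with those of the other pathway genes that had a site or 1 of the 5 highest cocaine folds. The library values of named sites went into a two-sided exact permutation test and limma 3.58.1 on log2(normalized count + 1), a scale that understates the change of low sites, each adjusted over all 956 sites and tested on simulated data. Each library's values up to 20 reads were whole multiples of 1 step within 0.1 step (100.0% in each), which gave the reads. A quasi-Poisson test on these reads was added after the data were examined. The alternatives were other windows, thresholds, pseudocounts, a filter on low values and left-out libraries.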

Additional observations from a re-analysis of the deposited data

Results flagged for a closer look

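At the Nr4a1 site the highest of the 6 cocaine libraries, cocaine 1 with a normalized count of 19.24, stood apart from the others, which lay between 10.26 and 13.28. It was still below the lowest saline library (22.89). It was the 1 value that stood apart by Dixon's criterion among 20 groups of libraries examined, where chance gives about 1 in 20. Without cocaine 1 the log2 ratio of the means at this site was -1.19, against -1.04 with it.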

How the results depend on the processing

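Counts of genes with a peak depended on where a peak had to lie. With peaks that overlap the gene, 7 genes had a cocaine peak (4 of them effectors) and 1 a saline peak (1 effector), against 8.42% and 1.64% of all protein-coding genes. With peaks within 1 kb of a transcription start site, which could be asked of 27 genes, 4 had a cocaine peak (against 6.36% of the protein-coding genes with a listed start site), 0 transcription factors and 4 effectors. Of the 4 transcription factor genes with a cocaine peak, 1 (Npas4) had a listed start site, so the roles cannot be compared in this setting. A window of 10 kb left 11 cocaine and 2 saline genes, against 13.8% and 2.72% of all genes, and a q of at most 0.001 left 11 and 2, against 9.1% and 1.63%. In the trimmed cocaine list 4 genes had a peak, 2 transcription factors and 2 effectors. Per1, Per2, Btg2, Ier2 and Ier5 were also counted with the transcription factors. Cocaine peaks were then at 6 of 23 of these and 5 of 15 other effectors, where genes of like length gave 9.74% and 10.3%. Saline peaks were at 1 and 1, where genes of like length gave 1.78% and 1.71%. Overlap of cocaine with saline peaks stayed at 1 when 50% reciprocal overlap was asked. Assigning sites by position within 1 kb left 1 site, that of Creb1, and a threshold of 0.01 on the authors' adjusted p left both. Of all listed sites, 338 of 480 lower and 85 of 476 higher sites passed the exact permutation test. Of the 2 sites of the set, 1 (Nr4a1, a lower site) passed it. With 1 library left out this number ran from 0 to 1, being 0 without saline 1, 2, 3 or 4, where fewer splits raise the smallest p, and it was 0 without cocaine 5 and 6 (smallest p 0.0286). Over these the log2 ratio at Nr4a1 stayed between -1.19 and -0.98, and with 1 library left out that at Creb1 was between 0.62 and 1.19. The adjusted p at Creb1 ran from 0.0658 to 0.187 over 16 settings and passed in 0. The quasi-Poisson adjusted p was 0.0232 at Nr4a1 and 0.122 at Creb1. Rheb and the Mir3093 site passed in 0 of 16 settings, and the Vamp2 site in 1. Nr4a1, Slc4a2, Hdac4, Cdk5r1, Camkk2 and Camk2b each passed in 11 of 16, and their adjusted p was 0.0717 without cocaine 5 and 6. They failed in the same settings, those without a saline library or without cocaine 5 and 6. In each of these the adjusted p was the same at all these sites. Fewer splits raise the smallest p there, so the tally does not grade these sites. No site changed direction. No paired analysis was possible because the library values carry no replicate numbers. Recovered reads per library ran from 6 to 64 at Nr4a1 and from 8 to 24 at Creb1, which limits the differences that could be detected.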
